A study of Mus musculus with 13 samples.

Results

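The 10 genes Xrcc5, Xrcc6, Prkdc, Dclre1c, Poll, Polm, Lig4, Xrcc4, Nhej1 and Trp53bp1 of non-homologous end joining were followed in oocytes after γ-irradiation. They were chosen by name, as the factors of the pathway, and the rule set no condition on their values. All 10 were found among 49585 genes in each of 13 libraries, and all 10 passed the filter on low counts in each comparison. No end-joining gene passed the test at any dose or time, where 0% to 0.128% of all genes tested passed in each comparison. For the pooled late libraries of 0.5 Gy against the early ones, the 95% interval of the change of each of the 10 lay within a 2-fold change in either direction. Intervals at single times after 0.5 Gy were wider. The damage-response genes Cdkn1a and Mdm2 rose 9.97-fold and 6.21-fold in the same libraries. The smallest unadjusted p-values among the 10 belonged to a lower Lig4 level at 1 h at both doses and a lower Xrcc4 level at 4 and 6 h after 0.5 Gy, neither of which passed the test.

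Non-homologous end joining seals a DNA double-strand break without a template. The Ku heterodimer (Xrcc5 and Xrcc6 encode its subunits Ku80 and Ku70) binds the ends and brings in the kinase DNA-PKcs (Prkdc), the nuclease Artemis (Dclre1c) and the polymerases λ and μ (Poll and Polm), after which DNA ligase IV (Lig4) with XRCC4 and XLF (Nhej1) joins the ends. The protein 53BP1 (Trp53bp1) binds the chromatin around the break and holds back the resection of the ends, which favours joining. The oocytes of a newborn ovary rest in meiotic prophase, a stage at which the template of a sister or homologous chromosome is at hand.

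Oocytes came from ovaries of 5-day-old (P5) female CD-1 mice that were kept in culture overnight, exposed to a caesium source and dissolved in trypsin, and were separated from follicular cells by centrifugation. Ovaries were pooled for each time point, and RNA was sequenced at 5 times, from 0 h, before the exposure, to 6 h after it. At 0.5 Gy there were 8 libraries: 2 each at 0, 1 and 4 h, the first and second of which came from the first and second generation named in the labels, and 1 each of the second generation at 2.5 and 6 h. At 0.2 Gy there was 1 library of the third generation at each time, so that dose and generation cannot be told apart. The labels name no transgene, and no library was an unirradiated culture of a later time, so time in culture and irradiation cannot be told apart either.

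The libraries held 15709549 to 30430104 estimated reads, of which the 10 end-joining genes took 0.0355% to 0.05%, between 74 and 5234 reads per gene and library. The 10 oocyte markers were above 3 reads in every library, with a summed level of 1783 to 2462 CPM (reads of the genes scaled to the same TMM-adjusted total in every library), but so were all 9 granulosa cell markers (1198 to 2075), all 6 stroma markers (1788 to 3460) and all 4 red blood cell markers (509.5 to 4763). The libraries labelled as oocytes thus also held transcripts that mark other ovarian cells and blood, and their part in the results was not tested. Lymphocyte markers, 3 of 4 above 3 reads in every library, summed to 5.01 to 14.7. The second 0 h library of 0.5 Gy was the shallowest, and its 8 granulocyte markers summed to 431 CPM, against 5.29 to 16.3 in the other libraries. In such bulk samples, fewer cells of a type and less RNA per cell cannot be told apart.

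Levels between genes were compared per length. As CPM per kilobase of the coding transcript, Ku80 (Xrcc5) led with 51.8 ± 4.18 (SD, n = 3 unirradiated libraries), ahead of Ku70 (Xrcc6) with 30.4 ± 9.71 and Xrcc4 with 25.0 ± 3.90. A middle group held Nhej1 with 9.86 ± 1.98, Poll with 9.32 ± 2.09, Dclre1c with 5.94 ± 1.01 and Trp53bp1 with 5.74 ± 0.383. The lowest levels were those of Lig4 with 3.49 ± 0.426, Prkdc with 3.24 ± 1.00 and Polm with 2.32 ± 0.199. The ranges of the 3 unirradiated libraries overlapped between neighbours for Xrcc6 and Xrcc4, Nhej1 and Poll, Dclre1c and Trp53bp1, and Lig4 and Prkdc, and did not overlap between the other neighbours. This order holds for the length of the single coding transcript used per gene, and other lengths were not tried. Dclre1c was taken over the 2469 bases of Dclre1c-203, though the 7075-base Dclre1c-201 held up to 49.8% of its reads. Lig4 was taken over the 5028 bases of Lig4-201, though the 3105-base Lig4-202 held up to 55.3%. Trp53bp1-202, whose length was used for Trp53bp1, held a median of 1.08% of its reads. On this scale the Xrcc6 level was below that of Xrcc5 in 13 of 13 libraries, at 0.404 to 0.806 of it, which takes all Xrcc6 reads over the 2114 bases of Xrcc6-201. As TPM the order of the Ku partners turned, with Xrcc6 above Xrcc5 in 13 of 13 libraries at 1.96 to 3.94 times its level, and as TPM of coding transcripts alone they stood at 17.1 ± 8.37 and 16.6 ± 1.48 before irradiation. The Xrcc4 level per kilobase was 3.83 to 18.8 times that of Lig4, whose protein it binds, and as TPM 5.07 to 34.2 times. Xrcc5 was 10.7 to 33.9 times as high as Prkdc.

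**Figure D1:**
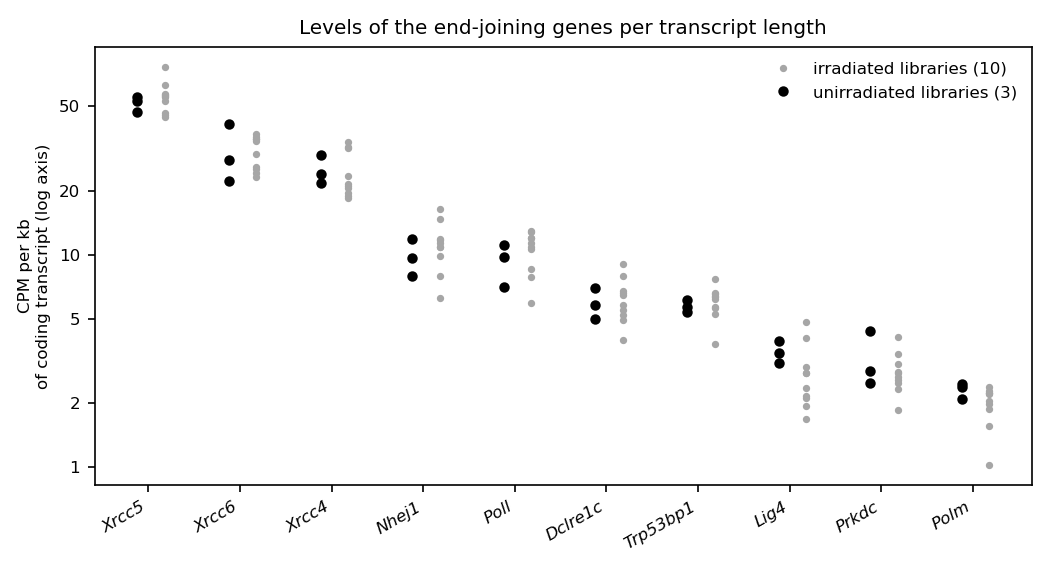
Level of each end-joining gene as CPM per kilobase of its coding transcript, on a log axis, in the 3 unirradiated libraries (black) and the 10 irradiated libraries (grey). Xrcc5 lies highest in the unirradiated libraries, at 47.1 to 55.1, and Polm lowest, at 2.09 to 2.46.

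The order differed on the authors' TPM scale (salmon's length-scaled relative abundance), summed over all transcripts of a gene. There Xrcc6 led with 47.8 ± 18.4 TPM (SD, n = 3) over Xrcc5 with 16.6 ± 1.48, Xrcc4 with 14.8 ± 2.70 and Trp53bp1 with 12.4 ± 3.98. Nhej1 followed with 7.21 ± 4.50, Poll with 3.87 ± 0.669, Dclre1c with 2.87 ± 0.298, Lig4 with 1.235 ± 0.122, Polm with 1.14 ± 0.223 and Prkdc with 1.10 ± 0.487. The unirradiated ranges overlapped between neighbours in this order, except between Xrcc6 and Xrcc5, between Poll and Dclre1c and between Dclre1c and Lig4. Short transcripts carried much of these sums. In Nhej1, a processed transcript of 65 bases (Nhej1-202) with 0 to 3 reads took up to 72.7% of the TPM of the gene, and in Trp53bp1 the coding transcripts held only 1.95 ± 1.54 TPM. Among 19154 protein-coding genes tested, the TPM of the 10 genes lay between percentile 41.2 (Prkdc) and percentile 93.5 (Xrcc6).

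The main comparison set the 4 libraries of 2.5, 4 and 6 h after 0.5 Gy against the 4 libraries of 0 and 1 h, and asks whether the end-joining genes moved once the damage response had set in. A gene was called by edgeR's quasi-likelihood test at an adjusted p (Benjamini-Hochberg) under 0.05 with a log2 fold change beyond 1 in either direction. Of the 10 end-joining genes 0 were called, against 29 of all 22588 genes tested (0.128%). At an unadjusted p under 0.05 they were again 0 of 10, where 9.06% of all genes passed. DESeq2's Wald test and limma also called 0 of 10, but the share of all genes that they called is not given here. Their counts therefore cannot be set against a background. The fitted log2 fold changes lay between -0.33 (Xrcc4) and 0.35 (Nhej1), 6 above 0 and 4 below, with a median of 0.17 beside -0.02 for all genes tested. The 95% intervals reached from -0.98 (Polm) to 0.96 (Lig4). No gene of the 10 had 4 late libraries all above or all below the 4 early ones, which 4.84% of the genes did.

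The same libraries held a clear response of the cell cycle inhibitor gene Cdkn1a, whose level was 3.72 to 11.5 CPM early and 45.8 to 93.7 late. Its log2 fold change was 3.32 (SE 0.36, adjusted p = 0.0036 by edgeR). Mdm2, which encodes the ubiquitin ligase of the p53 pathway, stood at 52.9 to 75.6 early and 234 to 589 late, a log2 fold change of 2.63 (SE 0.29, adjusted p = 0.0036). Reads of coding transcripts alone gave Mdm2 a value of 1.32 with adjusted p = 0.222. The late libraries of both genes lay above all early ones.

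**Figure D2:**
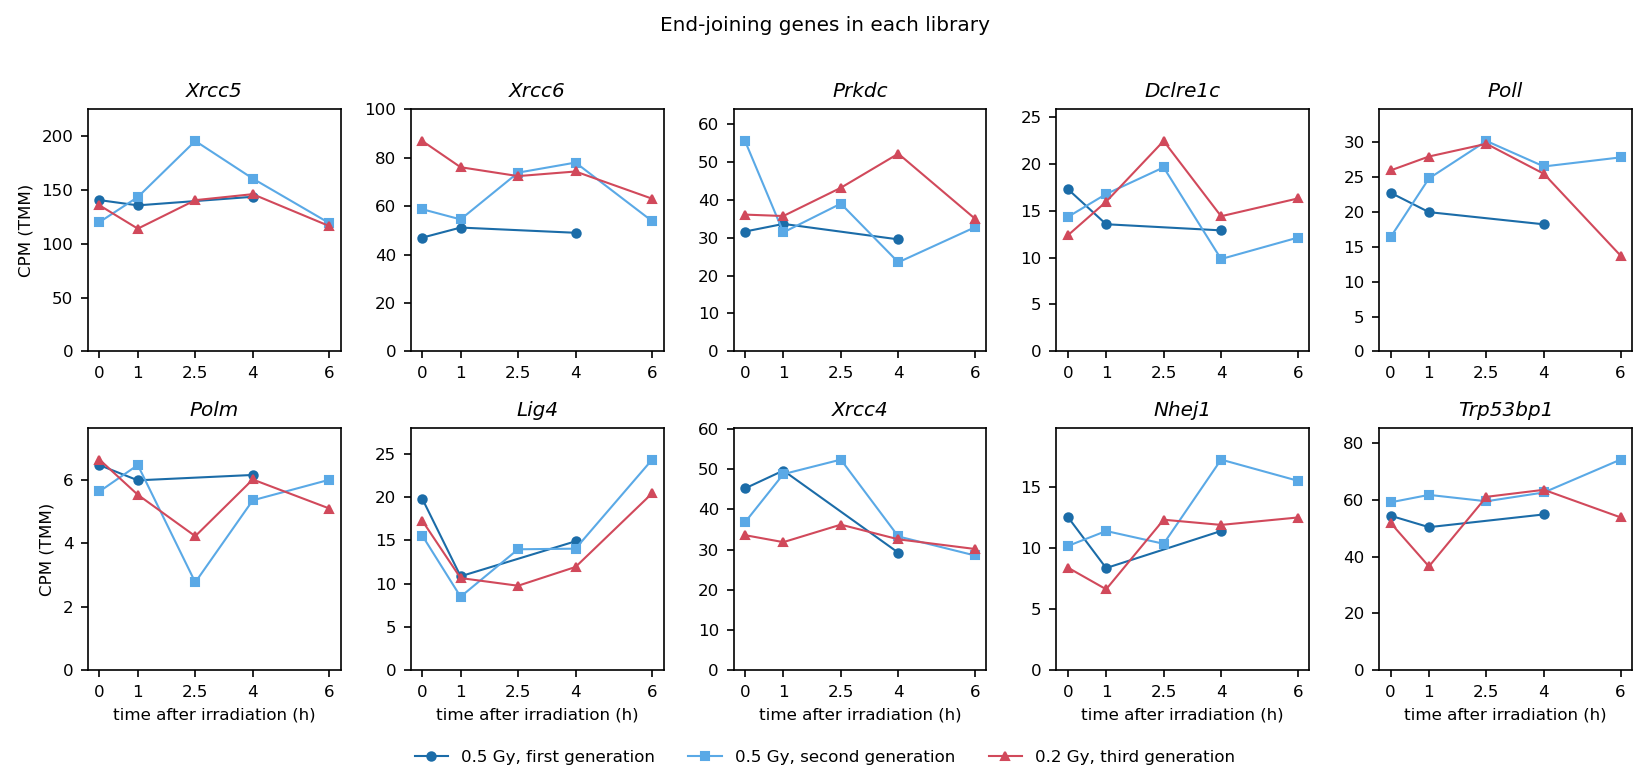
TMM-normalized CPM of each end-joining gene against time after irradiation, 1 point per library and 1 line per generation; each panel's axis starts at 0. Lines follow the labels; the order of the first and second library at 1 and 4 h differed between sources. All 3 Lig4 libraries of 1 h lie below the 3 of 0 h, and no other gene of the 10 separates at 1 h. Of all genes, 6% separate there, in either direction. At 4 h, Xrcc5 (higher), Lig4 and Xrcc4 (both lower) separate from 0 h, as do 10.7% of all genes in either direction.

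Each gene is given below as TMM-normalized CPM, in the order first and second library where there are 2. Xrcc5 (ENSMUSG00000026187, chr1:72307421-72394952 of GRCm38, plus strand) encodes the Ku80 subunit. After 0.5 Gy its level was 141 and 120.4 before irradiation, 136 and 144 after 1 h, 196 after 2.5 h, 144 and 161 after 4 h, and 119 after 6 h. The 2.5 h library was the highest and the 6 h library the lowest, and late and early libraries overlapped (log2 fold change 0.19, SE 0.17, adjusted p = 0.758 by edgeR). After 0.2 Gy the values in order of time, from 0 to 6 h, were 136, 114, 141, 146 and 117, without the high value at 2.5 h. Xrcc5 was the steadiest of the 10 over the 13 libraries together with Trp53bp1, with coefficients of variation of 15.6% and 15.4%.

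Xrcc6 (ENSMUSG00000022471, chr15:81987835-82040085, plus strand) encodes Ku70. It stood at 47.0 and 58.8 before irradiation, 51.2 and 54.6 after 1 h, 73.9 after 2.5 h, 49 and 78.1 after 4 h, and 53.9 after 6 h at 0.5 Gy. The second 4 h library and the 2.5 h library were above the early range, and the other late libraries were within it (log2 fold change 0.26, SE 0.18, adjusted p = 0.702). After 0.2 Gy the levels were 87.0, 76.1, 72.5, 74.4 and 63.1 from 0 to 6 h. The unirradiated library of 0.2 Gy was therefore the highest of all 13. Between the libraries of the doses, in a model of all 13 with dose and time, Xrcc6 was the only end-joining gene with an unadjusted p under 0.05, at a log2 fold change of 0.36 for 0.2 over 0.5 Gy (SE 0.15, adjusted p = 0.394), where 11.5% of 28493 genes had one. The called share there was 0.00351% of genes and 0 of 10 end-joining genes. Since the 0 h libraries take part in it and each dose is another generation, this is a difference between sets of libraries. Most reads of Xrcc6 went to short transcripts: the 1062-base coding Xrcc6-212 took 38.7% to 50.6% of them, and all 6 coding transcripts together took 51.3% to 60.7%. Of its 30-base sequences, 6.86% are shared with Desi1 on the opposite strand.

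Prkdc (ENSMUSG00000022672, chr16:15637866-15842235, plus strand) encodes the catalytic subunit of DNA-PK, which Ku recruits to the ends. After 0.5 Gy its level was 31.6 and 55.5 before irradiation, 33.6 and 31.4 after 1 h, 38.9 after 2.5 h, 29.5 and 23.5 after 4 h, and 32.7 after 6 h. The second 0 h library, the shallow one with the granulocyte transcripts, held the highest value. With it the log2 fold change was -0.29 (SE 0.23, adjusted p = 0.742 by edgeR), and without it -0.04. After 0.2 Gy Prkdc stood at 36.1, 35.7, 43.1, 52.1 and 35.0, with its highest value at 4 h, the time of the lowest value after 0.5 Gy. The difference of the late changes between the doses was -0.69 on the log2 scale (SE 0.39, adjusted p = 0.666).

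The retained-intron transcript Prkdc-202 differed between the sets of libraries, an observation made after its values were seen. Its share of the Prkdc reads was 0.313% to 9.62% after 0.5 Gy (2.45 to 72.9 reads) and 9.55% to 22.6% after 0.2 Gy (112 to 317 reads). As CPM it was 3.41 to 11.8 in the 5 libraries of 0.2 Gy and 0.099 to 2.84 in the 8 of 0.5 Gy, the 0 h libraries included. The share of all transcripts with such a difference is not given here, so it cannot be read as particular to Prkdc. Between these sets 11.5% of 28493 genes had an unadjusted p under 0.05 by edgeR. The share of all reads on retained-intron transcripts was 5.70% to 6.64% in the 13 libraries. The part of pre-mRNA or generation in this was not tested.

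Dclre1c (ENSMUSG00000026648, chr2:3424131-3464130, plus strand) encodes Artemis, the nuclease that trims ends and opens hairpins once DNA-PK is bound. Its level after 0.5 Gy was 17.3 and 14.3 before irradiation, 13.5 and 16.8 after 1 h, 19.6 after 2.5 h, 12.9 and 9.84 after 4 h, and 12.1 after 6 h. The 3 libraries of 4 and 6 h lay below all early ones, but the 2.5 h library was above them (log2 fold change over 2.5, 4 and 6 h -0.19, SE 0.25, adjusted p = 0.862). After 0.2 Gy the values were 12.4, 15.9, 22.4, 14.4 and 16.3. The 2.5 h library was the highest of its course at both doses, at 1.37 and 1.81 times the 0 h library of its generation. Against 0 h in the model of both doses, the 2.5 h value was 0.49 on the log2 scale (SE 0.28, adjusted p = 0.838).

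Poll and Polm encode the polymerases that fill gaps at the ends. Poll (ENSMUSG00000025218, chr19:45552275-45560531, minus strand) stood at 22.7 and 16.4 before irradiation, 19.9 and 24.8 after 1 h, 30.1 after 2.5 h, 18.2 and 26.5 after 4 h, and 27.8 after 6 h at 0.5 Gy, where late and early libraries overlapped (log2 fold change 0.29, SE 0.21, adjusted p = 0.715). After 0.2 Gy it was 25.9, 27.9, 29.7 and 25.4 up to 4 h and 13.7 after 6 h, the lowest of the 13 libraries. Polm (ENSMUSG00000020474, chr11:5827860-5838016, minus strand) was the least abundant of the 10, at 6.46 and 5.63 before irradiation, 5.98 and 6.47 after 1 h, 2.77 after 2.5 h, 6.15 and 5.35 after 4 h, and 6.00 after 6 h. After 0.2 Gy it stood at 6.64, 5.53, 4.22, 6.01 and 5.10, so that the 2.5 h library was the lowest at both doses, on 74 and 114 reads. In the model of both doses Polm at 2.5 h had a log2 fold change of -0.85 against 0 h (SE 0.35, unadjusted p = 0.0317, adjusted p = 0.838 by edgeR). It was the only one of the 10 with an unadjusted p under 0.05 at this time, against 5.76% of all genes. The Poll level per kilobase exceeded that of Polm in 13 of 13 libraries, by 3.13 to 12.6 times.

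Lig4 (ENSMUSG00000049717, chr8:9969049-9977686, minus strand) encodes the ligase that seals the break, and it varied most among the 10, with a coefficient of variation of 31.7% over 13 libraries. After 0.5 Gy its level was 19.8 and 15.5 before irradiation, 10.8 and 8.48 after 1 h, 14.0 after 2.5 h, 14.9 and 14.0 after 4 h, and 24.3 after 6 h. After 0.2 Gy it was 17.3 before irradiation, 10.6 after 1 h, 9.74 after 2.5 h, 11.9 after 4 h and 20.4 after 6 h. The 3 libraries of 1 h, at 8.48 to 10.8, were below the 3 of 0 h, at 15.5 to 19.8. The 6 h library was the highest of its course at both doses.

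In the model of both doses, the log2 fold change of Lig4 after 1 h against 0 h was -0.81 (95% interval -1.33 to -0.29, SE 0.24, unadjusted p = 0.00496). The adjusted p was 1 by edgeR, and Lig4 was not called. Here 2.94% of 28493 genes had an unadjusted p under 0.05 and 0% were called. Lig4 was the only one of the 10 whose 3 libraries of 1 h lay all below or all above the 3 of 0 h, as 6% of the genes did. Within 0.5 Gy alone the value was -0.85 (SE 0.35, unadjusted p = 0.0379, adjusted p = 1), in a fit with 28468 genes of which 3.98% had an unadjusted p under 0.05 and 0% were called. Because 1 h belongs to the early libraries of the main comparison, its log2 fold change of 0.29 there (SE 0.30, adjusted p = 0.811) became -0.06 when 0 h alone was the reference.

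Lig4 is annotated with 2 coding transcripts of the same coding length (2733 bases), each with a first exon of its own. Lig4-201 is 5028 bases long and Lig4-202 is 3105 bases long. Lig4-202 starts at the outer start site, 1387 bases upstream of that of Lig4-201 in the annotation of the counted transcripts and 1369 bases in RefSeq. Since the reads of both transcripts differed over time, the 250 bases upstream of each RefSeq start on GRCm38.p6 are printed, 5′ to 3′ on the minus strand. The RefSeq start of Lig4-202 lies 6 bases inside the counted transcript, so the last 6 bases printed for it belong to that transcript. The capitals mark GGGCGG or its reverse complement, a motif bound by Sp1-type factors, which 32.7% of 32851 promoters of this length held on either strand.

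Lig4-202 start, chr8:9977681-9977930: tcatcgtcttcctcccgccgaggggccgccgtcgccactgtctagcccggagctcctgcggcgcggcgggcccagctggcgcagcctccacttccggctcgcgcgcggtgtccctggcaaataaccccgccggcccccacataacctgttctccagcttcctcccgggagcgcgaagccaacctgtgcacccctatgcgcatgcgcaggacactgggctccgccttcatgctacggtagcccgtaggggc

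Lig4-201 start, chr8:9976312-9976561: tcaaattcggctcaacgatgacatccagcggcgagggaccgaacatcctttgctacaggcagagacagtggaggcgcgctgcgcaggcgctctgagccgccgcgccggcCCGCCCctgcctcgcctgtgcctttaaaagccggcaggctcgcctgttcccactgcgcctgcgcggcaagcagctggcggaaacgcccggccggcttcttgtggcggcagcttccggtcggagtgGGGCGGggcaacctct

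The stretch before Lig4-202 held 0 matches to GGGCGG and that before Lig4-201 held 2. Both held 0 matches to CCAAT (in 33.8% of promoters) and to TATAAA (in 12.4%), on either strand. They were rich in G and C, at 70% and 68.4%, above 90.8% and 88.4% of the promoters, with 27 and 28 CpG pairs. Of the 10 genes, 8 had an entry in this promoter table.

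The estimated reads of Lig4-202, as CPM, were 8.32 and 3.71 before irradiation, 0.972 and 1.83 after 1 h, 2.26 after 2.5 h, 7.05 and 7.35 after 4 h, and 12.0 after 6 h at 0.5 Gy. After 0.2 Gy they were 8.70, 3.56, 3.47, 6.59 and 7.66. The libraries of 1 h were the lowest at 0.5 Gy, and those of 1 and 2.5 h were the lowest at 0.2 Gy. Lig4-201 stood at 11.5 and 11.9 before irradiation, 9.87 and 6.64 after 1 h, 11.7 after 2.5 h, 7.82 and 6.69 after 4 h, and 12.3 after 6 h, and after 0.2 Gy at 8.56, 7.07, 6.26, 5.32 and 12.8. The share of Lig4-202 in the Lig4 reads was 42.0% and 23.8% before irradiation, 8.96% and 21.6% after 1 h, 16.1% after 2.5 h, 47.4% and 52.3% after 4 h, and 49.3% after 6 h. After 0.2 Gy it was 50.4%, 33.5%, 35.7%, 55.3% and 37.5%. Its share was lowest in a 1 h library at both doses. By the labels, the lowest share of the second generation was that of 2.5 h (16.1%), after 23.8% at 0 h and 21.6% at 1 h. Salmon splits reads of the shared body between the transcripts by an estimate, and no test was made at this level.

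**Figure D3:**
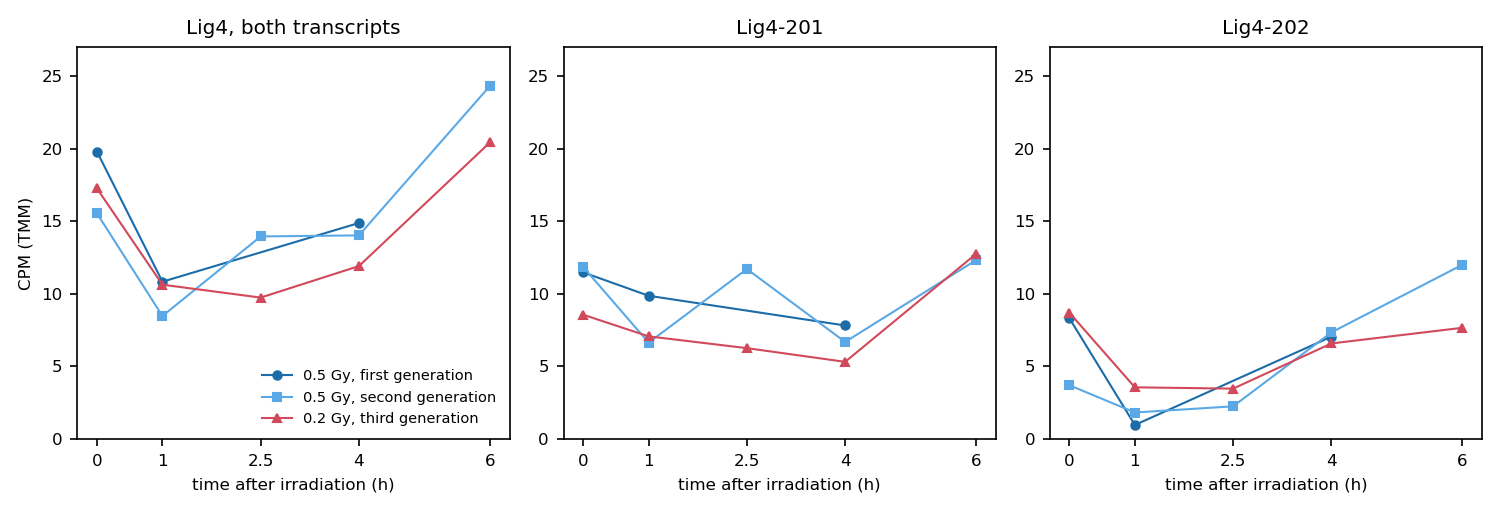
TMM-normalized CPM of Lig4 (left) and of its transcripts Lig4-201 and Lig4-202 (centre and right) against time after irradiation, 1 point per library and 1 line per generation. Lig4-202 lies at 0.972 to 3.56 at 1 h and at 3.71 to 8.70 at 0 h.

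Xrcc4 (ENSMUSG00000021615, chr13:89774027-90089608, minus strand) encodes the partner that stabilizes the ligase. After 0.5 Gy it stood at 45.2 and 36.8 before irradiation, 49.7 and 48.8 after 1 h, 52.4 after 2.5 h, 29.2 and 33.3 after 4 h, and 28.5 after 6 h. The 3 libraries of 4 and 6 h were below all 4 early ones, and the 2.5 h library was the highest of all. With 2.5 h among the late libraries the log2 fold change was -0.33 (SE 0.21, adjusted p = 0.680 by edgeR). For 4 and 6 h alone, in the fit of both doses, it was -0.57 (95% interval -0.93 to -0.21, SE 0.17, unadjusted p = 0.00457). The adjusted p was 0.340, so it was not called, and 8.7% of 28162 genes had an unadjusted p under 0.05 while 0.128% were called. Xrcc4 and Dclre1c were the 2 of 10 with these 3 libraries below all early ones, as were 3.46% of the genes. After 0.2 Gy Xrcc4 was 33.6, 31.8, 36.2, 32.5 and 30.1, again highest at 2.5 h, and the late change was -0.06 (SE 0.22, adjusted p = 0.965). The test of the difference between the doses gave -0.51 (SE 0.27, adjusted p = 0.646).

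Nhej1 (ENSMUSG00000026162, chr1:74967139-75125200, minus strand) encodes XLF, which bridges the ends with XRCC4. Its level after 0.5 Gy was 12.6 and 10.2 before irradiation, 8.37 and 11.4 after 1 h, 10.4 after 2.5 h, 11.4 and 17.3 after 4 h, and 15.5 after 6 h. The second 4 h library and the 6 h library were above the early range, and the other late libraries were within it (log2 fold change 0.35, SE 0.25, adjusted p = 0.707). On the log2(TPM + 1) scale limma gave 1.10 with adjusted p = 0.147. This is the scale on which the 65-base transcript counts heavily. Its reads were 0 in all 4 early libraries and 1 or 2 in each late one. After 0.2 Gy Nhej1 stood at 8.41, 6.63, 12.3, 11.9 and 12.5. For 4 and 6 h against 0 and 1 h the log2 fold change was 0.70 (95% interval 0.01 to 1.39, SE 0.32, unadjusted p = 0.0483, adjusted p = 0.683 by edgeR). Of 28162 genes, 7.29% had an unadjusted p under 0.05 in this comparison. Red blood cell markers were higher in the same late libraries, at 1368 and 2713 CPM against 1203 and 1251, and their part in this was not tested.

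Trp53bp1 (ENSMUSG00000043909, chr2:121193281-121271407, minus strand) encodes 53BP1. It stood at 54.5 and 59.2 before irradiation, 50.4 and 61.8 after 1 h, 59.6 after 2.5 h, 54.9 and 62.7 after 4 h, and 74.3 after 6 h at 0.5 Gy, with the highest value at 6 h and the rest overlapping (log2 fold change 0.15, SE 0.15, adjusted p = 0.808). Reads on coding transcripts alone turned the sign (-0.07), and these held 40.2% to 69.0% of the Trp53bp1 reads. After 0.2 Gy the values were 51.9, 36.6, 61.1, 63.6 and 53.9, with the lowest of all 13 after 1 h. Of the 30-base sequences of Trp53bp1, 14.3% are also in Tubgcp4, which overlaps its end on the opposite strand. Smaller parts of Dclre1c (4.06%) and Xrcc4 (4.47%) are shared with other genes. The largest partners lie on the opposite strand, Suv39h2 with 2.68% of the Dclre1c sequences and Tmem167 with 2.07% of those of Xrcc4. Prkdc, Poll, Polm, Lig4, Nhej1 and Xrcc5 shared 0%.

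**Figure D4:**
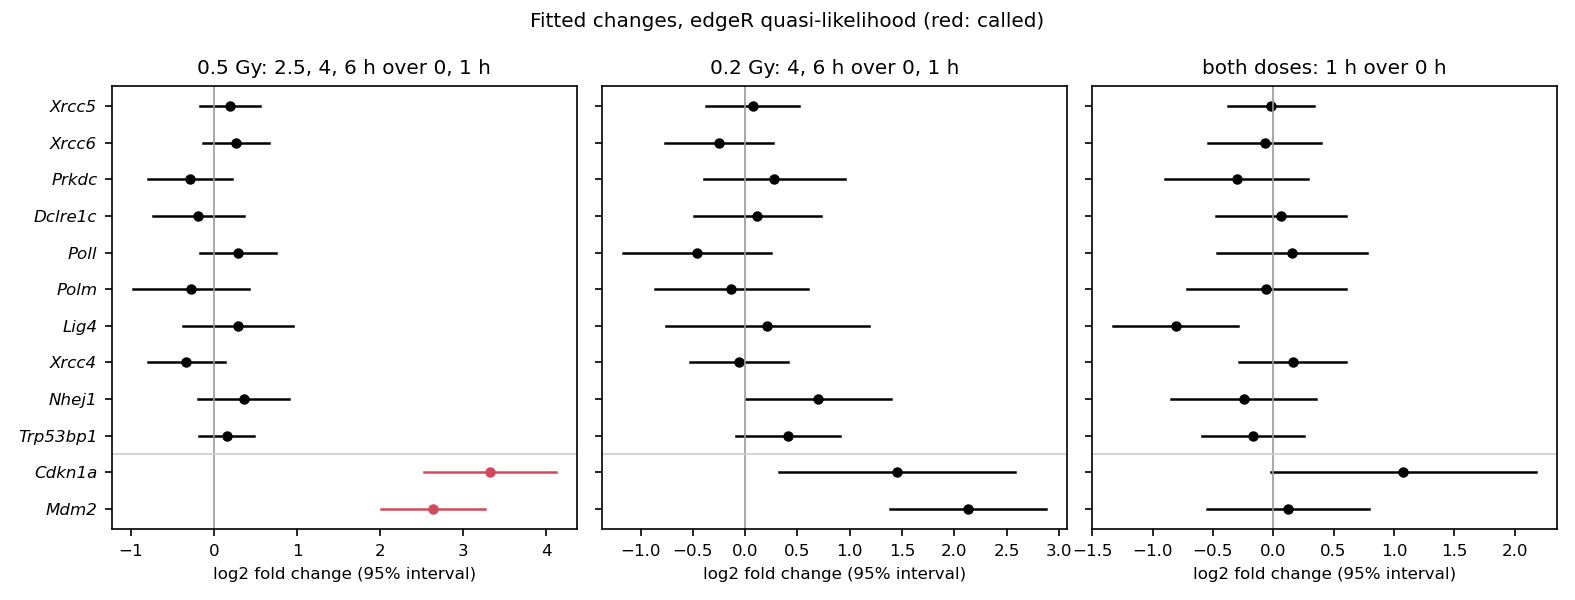
Fitted log2 fold changes with 95% intervals by edgeR for the end-joining genes (above the line) and the response genes Cdkn1a and Mdm2 (below) in 3 comparisons; red marks called genes. Among the end-joining genes, the intervals exclude 0 for Nhej1 after 0.2 Gy and Lig4 at 1 h, and none is called.

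The remaining comparisons with 0 h asked about single times. After 0.5 Gy, 0 of 10 end-joining genes were called at 1, 2.5, 4 and 6 h by edgeR, and 0% of 28468 genes were. At an unadjusted p under 0.05, Lig4 after 1 h was the only entry, against 5.59%, 5.82% and 5.94% of all genes at 2.5, 4 and 6 h. The intervals were wider here, from -2.38 to 1.58 after 2.5 h, where a single library stood against 2, and only 1 of the 10 lay within a 2-fold change. With the libraries of both doses, 0 of 10 were called at each time, and 0% (1 h), 0% (2.5 h), 0.00351% (4 h) and 0.00702% (6 h) of the genes were. At 4 h all 10 intervals lay within a 2-fold change, from -0.89 to 0.99. Between these 3 libraries of 4 h and the 3 of 0 h there was no overlap for 3 of the 10, Xrcc5 (higher), Lig4 and Xrcc4 (both lower), where 10.7% of all genes had none. The red blood cell markers also separated these libraries, with a summed level of 2713 to 4763 CPM at 4 h and 1203 to 2634 at 0 h, and their part in this was not tested. At an unadjusted p under 0.05 there were Lig4 at 1 h, Polm at 2.5 h and 0 of 10 at 4 and at 6 h, where 5.91% and 4.99% of the genes passed. DESeq2 and limma also called 0 of 10 in these comparisons, again without a share of all genes beside it.

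For 0.2 Gy, 4 and 6 h were set against 0 and 1 h in a joint fit of 11 libraries. Of the end-joining genes 0 of 10 were called, against 0.0462% of 28162 genes, and Nhej1 alone had an unadjusted p under 0.05, as 7.29% of the genes had. The median log2 fold change of the 10 was 0.09, beside -0.03 for all genes. The difference between the doses was called for 0 of 10 end-joining genes and for 0.032% of all genes, and none of the 10 had an unadjusted p under 0.05, where 8.14% of the genes had one. The intervals of this difference ran from -1.54 to 1.55. In the same fit Mdm2 had a log2 fold change of 2.13 after 0.2 Gy (SE 0.34, adjusted p = 0.0639) and Cdkn1a one of 1.45 (SE 0.52, adjusted p = 0.638), so neither was called at this dose. Both fitted changes were smaller, and both SEs larger, than in the main comparison of 0.5 Gy, and the cause was not tested. A missing call after 0.2 Gy is therefore weak evidence that a gene did not change.

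Genes around the pathway were read from 6 lists, and 0 genes of these lists were called by edgeR in either late comparison. Of all genes tested, 0.128% were called after 0.5 Gy and 0.0462% after 0.2 Gy. Among accessory end-joining factors, 9 of 10 were tested after 0.5 Gy, the helicase gene Wrn being lowest at -0.26 on the log2 scale (SE 0.21), and 0 had an unadjusted p under 0.05. Among partners of 53BP1 in end protection, 10 of 11 listed genes were in the files and tested, from the shieldin gene Shld2 at 0.43 (SE 0.38) to Rif1 at -0.35 (SE 0.18), again with 0. Rif1, which 53BP1 recruits, lay at 283 to 381 CPM early and 205 to 318 late. In break signalling upstream of 53BP1, 10 of 10 were tested, from Rad50 at 0.22 (SE 0.18) to Rnf168, the ubiquitin ligase whose mark 53BP1 reads, at -0.42 (SE 0.18, unadjusted p = 0.0376, adjusted p = 0.518). Rnf168 stood at 41.05 to 66.3 CPM early and 35.9 to 41.03 late, so its 4 late libraries lay just below the 4 early ones. Such a separation, in either direction, was seen in 4.84% of all genes. An unadjusted p under 0.05 was seen in 9.06% of those tested by edgeR.

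The routes that compete with end joining gave the same count. Of 7 genes of alternative end joining 7 were tested, from Xrcc1, the scaffold of single-strand repair, at 0.49 (SE 0.22, adjusted p = 0.555) to the polymerase θ gene Polq at -0.16 (SE 0.27). Of 6 genes of end resection 6 were tested, from the nuclease gene Dna2 at 0.13 (SE 0.21) to Bard1, the partner of Brca1, at -0.52 (SE 0.26, adjusted p = 0.586). For both lists 0 had an unadjusted p under 0.05, where 9.06% of all genes tested after 0.5 Gy had one. Of the 4 lymphoid partners of end joining, 3 were tested, with Rag2 highest at -0.16 (SE 0.51). Rag1, Rag2 and Dntt, which belong to antigen receptor assembly, were near the floor, at 0 to 55 reads in each library. After 0.2 Gy the 6 lists had 0 genes with an unadjusted p under 0.05, where 7.29% of 28162 genes had one.

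**Figure D5:**
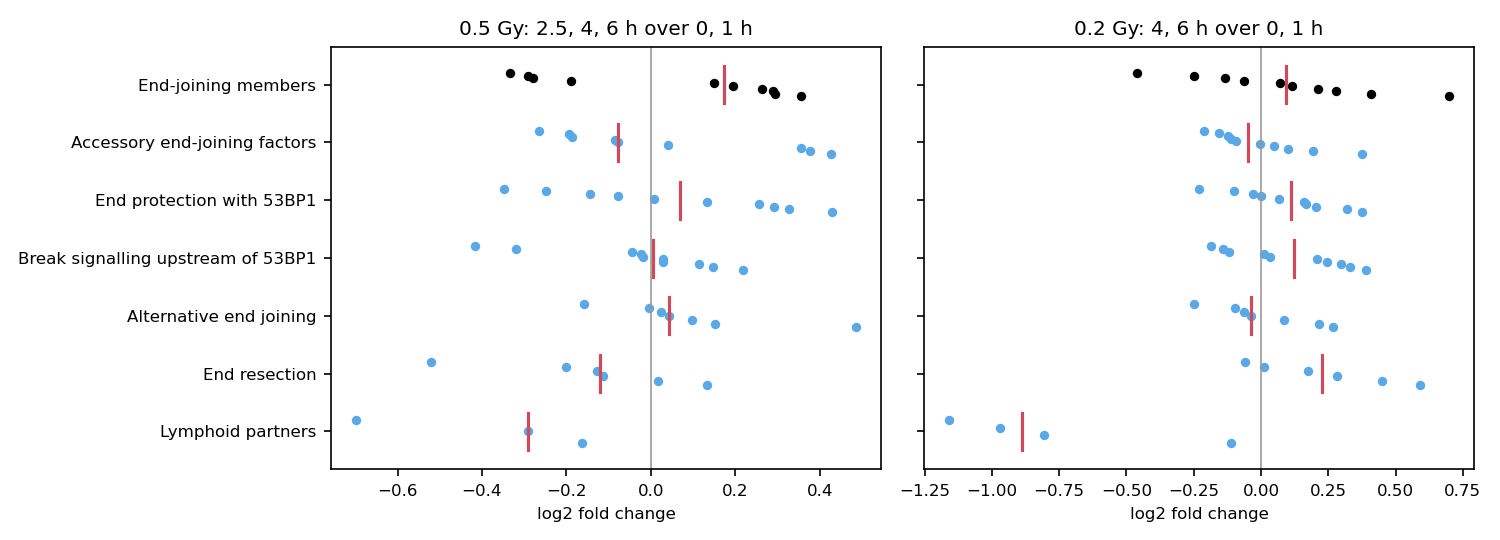
Log2 fold changes of the end-joining genes (black) and of the genes of 6 surrounding lists (blue), 1 point per gene, with the median of each list as a red line, after 0.5 Gy (left) and 0.2 Gy (right). The medians after 0.5 Gy lie between -0.29 (lymphoid partners) and 0.17 (end-joining genes).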

How the data were processed

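The authors mapped the reads with salmon to the mouse transcripts of GRCm38 and deposited, per transcript and library, estimated counts and TPM, unnormalized between libraries. The authors' tables of DESeq2 comparisons and pooled normalized counts were not used here. Estimated counts were summed per gene of the GENCODE annotation of GRCm38 and rounded, and 402 of 130740 transcripts without a gene were left out. The end-joining genes and all lists were chosen with earlier results of these data known, and each of the 10 was named whatever its value. From each list, the genes with the highest and lowest fold change after 0.5 Gy were named, apart from 2 that are not reported here.

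Tests used edgeR 4.0.16 (TMM, filterByExpr, quasi-likelihood) in R 4.3.3, with Benjamini-Hochberg adjustment over all genes tested, and limma 3.58.1 and DESeq2 1.42.0 as alternatives. The steps were tested on simulated counts. Intervals are 95% intervals of the fit. Late and early sets hold several times each. The spread behind the p-values and intervals of these comparisons therefore includes differences between times and between generations. In the model with dose and time, the spread includes differences between generations and differences between the doses in their time course. Whether libraries of 1 group, of the same dose and time, are independent biological samples is not known here. The first and second 0 h libraries of 0.5 Gy differed in their granulocyte markers, at 8.93 and 431 CPM. Replicate numbers mark generations. Deviations from the group mean correlated at 0.13 (0 and 1 h), 0.0784 (0 and 4 h) and 0.109 (1 and 4 h) across genes, so the numbers were not used as pairs. Strand was not given in the sources used here, so reads of overlapping antisense genes cannot be told apart.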

Additional observations from a re-analysis of the deposited data

How the results depend on the processing

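The count of called end-joining genes was 0 under every alternative run, which covered the late comparisons of both doses, the single times and the difference between the doses: DESeq2 size factors, upper-quartile factors, no filter, a filter at 1 CPM in 4 libraries, DESeq2's Wald test, no minimum fold change, coding transcripts only, limma on log2(TPM + 1), generation as a replicate block (count 0), the same block with the generations of 1 and 4 h crossed (count 0, tried because the order of read totals differed between sources), and each library left out (lowest and highest count 0). The share of all genes called is not given for these alternatives, so the counts show only that no call appeared. The blocks were not run for the late comparison of 0.2 Gy, and no alternative was run for 4 and 6 h alone after 0.5 Gy or for the libraries of 0.2 against 0.5 Gy. The median log2 fold change of the 10 after 0.5 Gy was 0.17. It was 0.055 with coding transcripts only, 0.14 with the replicate block, 0.21 with the crossed block and 0.06 to 0.23 with 1 library left out. With coding transcripts only Trp53bp1 was at -0.075, with limma Dclre1c was at 0.0033, and with 0 h as the only reference Lig4 was at -0.058 after 0.5 Gy. With limma the adjusted p of Mdm2 was 0.106, and with coding transcripts only it was 0.222. The cause was not tested. Leaving out 1 library turned the sign, among the 10 genes, of 7 of 60 values at 1 h in both doses and of 9 of 40 values after 0.2 Gy, and of 0 of 80 after 0.5 Gy. At 1 h these ranges were -0.50 to 0.063 for Prkdc, -0.12 to 0.23 for Dclre1c, -0.10 to 0.072 for Xrcc5, -0.21 to 0.10 for Xrcc6 and -0.13 to 0.038 for Polm. After 0.2 Gy they were -0.011 to 0.32 for Dclre1c, -0.27 to 0.051 for Polm, -0.13 to 0.022 for Xrcc4, -0.12 to 0.25 for Xrcc5, -0.22 to 0.65 for Lig4 and -0.050 to 0.55 for Prkdc. Lig4 at 1 h kept its sign, at -0.95 to -0.67. TPM of coding transcripts alone lowered the unirradiated level of Xrcc6 to 17.1, of Trp53bp1 to 1.95, of Nhej1 to 4.20, of Dclre1c to 1.55 and of Polm to 0.831. This scale, reads per kilobase and the counts of non-overlapping libraries were chosen after seeing the data. Single libraries at 2.5 and 6 h and 74 reads at the lowest limit what can be detected.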
